A study of Solanum lycopersicum with 8 samples.

Results

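Tomato (Solanum lycopersicum) leaves treated with tunicamycin were compared with control leaves at 6 h. The comparison used 4 of the 8 RNA-seq libraries of the series: tunicamycin 6 h, replicates 1 and 2, and control 6 h, replicates 1 and 2, chosen by the treatment and time in their labels. The other 4 libraries, tunicamycin 2 h and control 2 h with 2 replicates each, lent their spread to the test and served for a comparison between the times. The labels name leaf tissue, total RNA and biological replicates, and give no cultivar, plant age, tunicamycin dose or control solution. Each gene was represented by the transcript with the highest total count, which gave 29081 genes, and 20282 of them had enough counts to be tested.

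Tunicamycin blocks the enzyme that starts the lipid-linked sugar chain needed for N-glycosylation, so that newly made glycoproteins misfold in the endoplasmic reticulum (ER). Cells answer with the unfolded protein response, in which membrane sensors such as IRE1 and factors such as bZIP60 raise genes for chaperones (BiP, calnexin, protein disulfide isomerases) and for degradation of misfolded proteins. Leaves also run fast defence signalling, in which calcium influx, mitogen-activated protein (MAP) kinases, WRKY and ERF transcription factors and the hormones jasmonate and ethylene act together after wounding, handling or attack.

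The libraries differed in depth within each treatment. The tunicamycin libraries held 68168520 and 13213095 counts and the control libraries 16350535 and 90903361 (replicate 1, then replicate 2), so the deeper library was replicate 1 with tunicamycin and replicate 2 in controls. Values are therefore also given between the deeper pair (tunicamycin replicate 1 and control replicate 2) and between the shallower pair. Pearson's r of log2 abundance over all genes tested was 0.935 between the tunicamycin libraries and 0.930 between the control libraries, against 0.959 within the deeper pair and 0.928 within the shallower pair. Ribosomal RNA took 0.142% and 3.23% of the counts in tunicamycin leaves, against 0.861% and 0.46% in control leaves. Of 22 leaf mesophyll marker genes (Rubisco small subunits and chlorophyll-binding proteins) 21 could be tested, and none of these was at 0 in any library of 6 h. The summed marker abundance was 29030 and 58740 CPM (counts scaled to library size) with tunicamycin, against 36410 and 49600 CPM in controls.

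Most genes that passed the test were lower in tunicamycin leaves. Among them were genes of jasmonate synthesis and response, of calcium and kinase signalling, and of the ERF, WRKY and NAC transcription factor families. In all 54 genes passed (0.266% of those tested), of which 51 were lower (0.251%) and 3 were higher (0.0148%) with tunicamycin. A gene is called here when its Benjamini-Hochberg adjusted p in edgeR's quasi-likelihood test is under 0.05. Among the 51 lower genes the median log2 fold change, tunicamycin over control, was -2.39, against 0.02 over all genes tested. In the deeper pair it was -2.47 and in the shallower pair -2.31, and each of the 51 genes was below -1 in both pairs, as were 550 of all genes. For every called gene the 2 tunicamycin libraries lay on 1 side of the 2 control libraries, which held for 12.6% of all genes below and for 13.0% above control. The genes were called on these same libraries, so neither pattern is independent of the call. The calls rested on the spread shared with the 2 h libraries and on several single libraries, among them tunicamycin replicate 1. With only the 4 libraries of 6 h, or without that replicate, edgeR called 0 genes, with 862 and 1057 genes at an unadjusted p under 0.05, against 969 (4.78%) in the fit reported. In bulk leaf RNA, fewer cells of a type and less RNA per cell cannot be told apart.

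**Figure D1:**
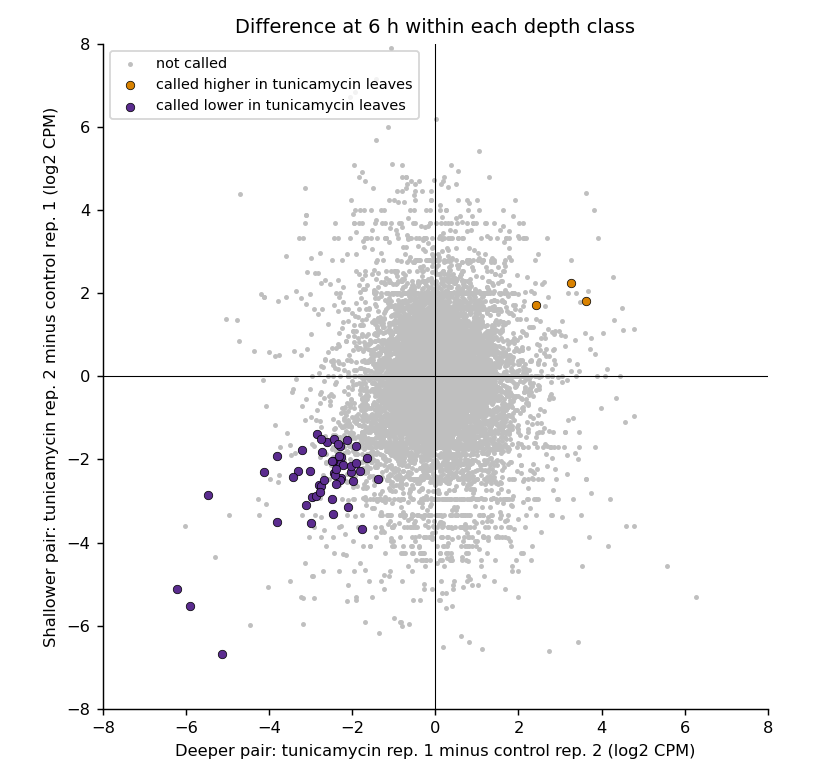
Each point is 1 of the 20282 genes tested, with the log2 CPM difference, tunicamycin minus control at 6 h, for the deeper pair (x axis) and the shallower pair (y axis). Genes called lower (51, purple) lie in the lower left and genes called higher (3, orange) in the upper right, while most genes (grey) scatter around 0 on both axes.

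Jasmonate genes gave the densest group of lower calls. Of 43 genes tested on the jasmonate list 6 fell, none rose and 37 were not called, so that 14% of the list was called lower, against 0.251% of all genes. The first enzymes of the pathway and its own repressors were among the 6. The gene aos encodes allene oxide synthase, which commits oxidised linolenic acid to jasmonate. It stood at 2.92 and 3.11 CPM in tunicamycin leaves, against 36.3 and 23.7 CPM in control leaves. Both tunicamycin libraries were far below both controls, and the fold change was -3.31 ± 0.42 on the log2 scale (SE, edgeR adjusted p = 0.0104). loxD, the chloroplast lipoxygenase that makes the substrate of allene oxide synthase, had 35.1 and 41.3 CPM in tunicamycin leaves, against 250 and 184 CPM in control leaves (log2 -2.51 ± 0.38, edgeR adjusted p = 0.0153). These calls held in 19 of 21 alternative settings for aos and in 17 for loxD.

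JAZ proteins (also called TIFY) bind and silence the transcription factors of the jasmonate response, and their genes are themselves switched on by jasmonate. JAZ2 had 8.98 and 7.09 CPM in tunicamycin leaves, against 53.5 and 70.8 CPM in control leaves, a log2 fold change of -2.94 ± 0.38 (edgeR adjusted p = 0.0104). SLJAZ3 had 27.1 and 36.5 CPM in tunicamycin leaves, against 172 and 143 CPM in control leaves (log2 -2.31 ± 0.40, edgeR adjusted p = 0.0308). Neither gene showed any overlap between the treatments. LOC101252907, described as TIFY 5A-like, stood at 0.522 and 2.07 CPM in tunicamycin leaves, against 15.4 and 25.5 CPM in control leaves. Its log2 fold change was -4.19 ± 0.61 (edgeR adjusted p = 0.0143), with -5.46 in the deeper pair and -2.86 in the shallower pair. A further TIFY 5A-like gene, LOC101252609, had 4 and 0 counts in the tunicamycin libraries, against 40 and 611 in the control libraries, and was called lower (edgeR adjusted p = 0.0349). Similar copies may share reads in these counts. TIFY 10b-like LOC101247936 had 87.7 and 77.9 CPM in tunicamycin leaves, against 276 and 231 CPM in control leaves, and was not called (log2 -1.61, edgeR adjusted p = 0.0952).

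The median of the jasmonate list was 0.03, against 0.02 for all genes, with 0.26 in the deeper pair and -0.21 in the shallower pair, so its sign turned with the library pair. Of the list's genes 23 were above zero and 20 below. Outside the list, LOC101263302 is described as cytochrome P450 94B3-like, a family that in Arabidopsis inactivates the active jasmonate conjugate by oxidation. It had 5 and 0 counts in the tunicamycin libraries, against 90 and 400 in the control libraries, or 0.0653 and 0 CPM against 5.86 and 4.26 CPM. Of 100 cytochrome P450 genes tested it was the 1 called (edgeR adjusted p = 0.0143), or 1.0%, against 0.251% of all genes called lower. At an unadjusted p under 0.05, 8 were lower (8.0%, against 3.59%) and 4 higher (4.0%, against 1.19%). Neighbouring 94B3-like genes, LOC101263399 and LOC101263598, gave log2 -5.29 and -5.27 without being called, and such copies may share reads.

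Genes of the ethylene response factor family were called in the same direction. Of 100 AP2/ERF and DREB genes tested 3 fell (3.0%, against 0.251% of all genes) and none rose. In the list 14 were lower at an unadjusted p under 0.05 (14%, against 3.59% of all genes), with 5 higher (5.0%, against 1.19%). LOC101246746 (ERF027-like) stood at 2.01 and 1.90 CPM in tunicamycin leaves, against 14.3 and 15.1 CPM in control leaves, with a log2 fold change of -2.90 ± 0.41 (edgeR adjusted p = 0.0143). The replicates of each treatment lay close together in this gene, with -2.87 in the deeper pair and -2.88 in the shallower pair. LOC101249870 (ERF13-like) had no count in either tunicamycin library, against 30 and 396 counts in the control libraries. With a floor of 3 counts over the tunicamycin group, its abundance was at least 90.7-fold lower than the control mean of 3.09 CPM (edgeR adjusted p = 0.0206). LOC101246484 (ERF109-like, a gene that in Arabidopsis answers wounding and jasmonate) had 8.11 and 10.5 CPM in tunicamycin leaves, against 27.5 and 58.8 CPM in control leaves (log2 -2.22 ± 0.38, edgeR adjusted p = 0.0293). Ethylene response factor D.3 (LOC101267746), not matched to that list, was also called, at 7.60 and 7.95 CPM in tunicamycin leaves, against 27.1 and 71.3 CPM in control leaves. This gene passed with an edgeR adjusted p of 0.048 and was called in 8 of 21 alternatives.

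None of 44 genes of ethylene synthesis and signalling was called, which is near the 0.266% of all genes for a list of this size. At an unadjusted p under 0.05, 7 were lower (15.9%, against 3.59% of all genes) and 2 higher (4.55%, against 1.19%). The smallest p belonged to LOC101258353, an ACC synthase-like gene of the enzyme family that limits ethylene production. It had 11.1 and 8.30 CPM in tunicamycin leaves, against 25.6 and 86.6 CPM in control leaves (log2 -2.53 ± 0.52, edgeR adjusted p = 0.0767). ACS1A, another ACC synthase, had nearly the same values, with 12.9 and 9.33 CPM in tunicamycin leaves against 30.0 and 97.7 CPM in control leaves, and the counting could have given both genes the same reads. In both genes control replicate 2 stood well above control replicate 1. EBF1, whose product marks the ethylene factor EIN3 for degradation, had 234 and 386 CPM in tunicamycin leaves, against 134 and 194 CPM in control leaves, without being called (log2 0.92, edgeR adjusted p = 0.876).

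Calcium signalling genes included several large decreases. On the calcium list 3 of 133 genes tested fell (2.26%, against 0.251% of all genes) and 1 rose, as did 0.0148% of all genes. At an unadjusted p under 0.05, 26 were lower (19.5%, against 3.59%) and 1 higher (0.752%, against 1.19%). The list median was -0.19. LOC101246688 is described as calcium-transporting ATPase 2, plasma membrane-type-like, of a class that pumps calcium out of the cytosol. It stood at 83.0 and 107 CPM in tunicamycin leaves, against 653 and 576 CPM in control leaves. This was a log2 fold change of -2.69 ± 0.45 (edgeR adjusted p = 0.026), called in 17 of 21 alternatives. LOC101245711 (the calcium-binding protein CML19) had 3.64 and 7.26 CPM in tunicamycin leaves, against 35.2 and 29.7 CPM in control leaves (log2 -2.61 ± 0.39, edgeR adjusted p = 0.0143). LOC101255079 (calmodulin-binding protein 60 B-like) had 6.10 and 3.98 CPM in tunicamycin leaves, against 19.4 and 21.4 CPM in control leaves. It was called in 9 of 21 alternatives (log2 -2.0 ± 0.37, edgeR adjusted p = 0.0438). The mitochondrial calcium uniporter LOC101266343, which the list pattern did not match, also fell (log2 -1.86 ± 0.32, edgeR adjusted p = 0.0308).

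Of 47 MAP kinase cascade genes tested, LOC101263809 fell (2.13%, against 0.251% of all genes) and none rose. In all 8 were lower at an unadjusted p under 0.05 (17%, against 3.59%) and none was higher (against 1.19%). LOC101263809 encodes MAP kinase kinase kinase 5, the first kinase of a cascade, and had 12.3 and 7.17 CPM in tunicamycin leaves, against 41.1 and 48.9 CPM in control leaves (log2 -2.19 ± 0.37, edgeR adjusted p = 0.0266). MPK3, a terminal kinase of the defence cascade, had 138 and 126 CPM in tunicamycin leaves, against 424 and 450 CPM in control leaves, and did not pass (log2 -1.73 ± 0.41, edgeR adjusted p = 0.117). Upstream of such cascades, 2 of 317 receptor-like kinase genes fell (0.631%, against 0.251% of all genes) and none rose. At an unadjusted p under 0.05, 35 were lower (11%, against 3.59%) and 4 higher (1.26%, against 1.19%). LOC101251977, a G-type lectin receptor kinase, had 12.8 and 13.5 CPM in tunicamycin leaves, against 51.0 and 63.4 CPM in control leaves (log2 -2.13 ± 0.36, edgeR adjusted p = 0.0266). LOC101262225, described as probably inactive and with leucine-rich repeats, had 5.84 and 2.07 CPM in tunicamycin leaves, against 27.1 and 20.1 CPM in control leaves (log2 -2.51 ± 0.47, edgeR adjusted p = 0.0463). This gene was called in 9 of 21 alternatives. The leucine-rich repeat receptor kinase LOC101266317, which the list pattern did not match, also fell, with 6.74 and 6.22 CPM in tunicamycin leaves, against 30.7 and 27.5 CPM in control leaves (log2 -2.16 ± 0.34, edgeR adjusted p = 0.0206). The receptor kinase list had a median of 0.04 in the deeper pair and -0.34 in the shallower pair, so its shift was present in the shallower pair.

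WRKY factors bind W-box elements in defence genes, and their list had the highest share of genes with an unadjusted p under 0.05 in the lower direction among the lists of at least 20 genes. Of 56 WRKY genes tested 13 were lower in that sense (23.2%, against 3.59% of all genes) and none was higher (against 1.19%). The list median was -0.35, with -0.19 in the deeper pair and -0.35 in the shallower pair. On this list 1 gene was called lower (1.79%, against 0.251% of all genes). The called gene, LOC101258576 (WRKY53), stood at 65.6 and 43.9 CPM in tunicamycin leaves, against 242 and 171 CPM in control leaves (log2 -1.91 ± 0.36, edgeR adjusted p = 0.0477). Its call held in 10 of 21 alternatives, and it did not pass in the authors' deposited table for 6 h (false discovery rate 0.094). LOC101246812 (WRKY40) had 49.1 and 51.2 CPM in tunicamycin leaves, against 139 and 256 CPM in control leaves, and lay just outside the threshold (edgeR adjusted p = 0.0513). Among 44 NAC factor genes tested, NACMTF3 was the 1 called lower (2.27%, against 0.251% of all genes). It had 32.9 and 36.6 CPM in tunicamycin leaves, against 163 and 136 CPM in control leaves (log2 -2.10 ± 0.37, edgeR adjusted p = 0.0324). LOC101248759 is described as SAR DEFICIENT 1, which in Arabidopsis activates genes for salicylic acid synthesis. This gene had 25.9 and 29.6 CPM in tunicamycin leaves, against 94.7 and 128 CPM in control leaves (log2 -2.01 ± 0.32, edgeR adjusted p = 0.0206).

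**Figure D2:**
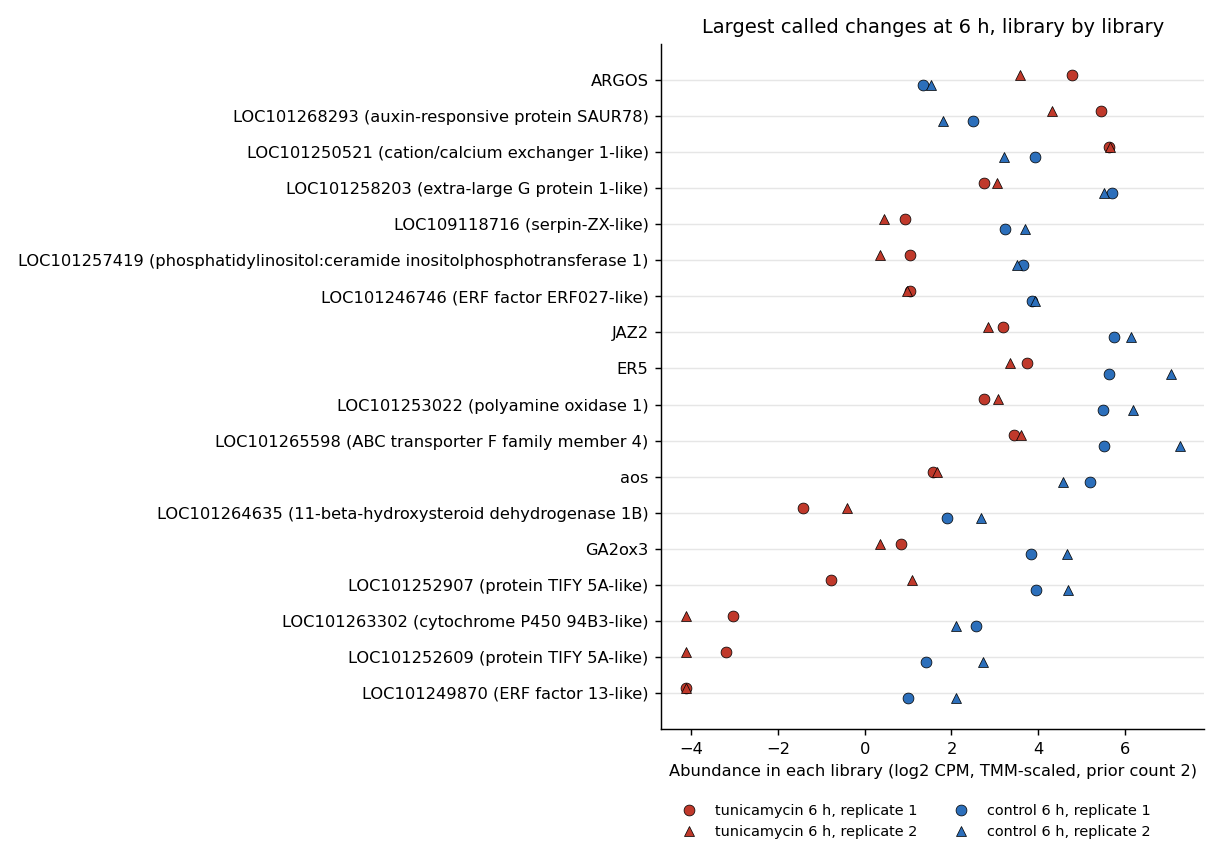
Abundance of the 15 genes with the largest called decreases, among genes with a described function whose mean log2 CPM reached 1, and of the 3 called increases in each library of 6 h, in log2 CPM with a prior count of 2. Red symbols are tunicamycin and blue symbols control, circles replicate 1 and triangles replicate 2. In every gene the 2 red symbols lie on 1 side of the 2 blue ones, which the selection of these genes required.

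The smallest p of all belonged to GA2ox3, whose enzyme inactivates gibberellins by 2-oxidation. GA2ox3 had 1.74 and 1.21 CPM in tunicamycin leaves, against 14.3 and 25.1 CPM in control leaves, with a log2 fold change of -3.70 ± 0.44 (edgeR adjusted p = 0.0104) and a call in 19 of 21 alternatives. The decrease had nearly the same size in the deeper (-3.81) and the shallower pair (-3.50). No other of the 30 gibberellin genes tested was called, so that 3.33% of the list was called lower, against 0.251% of all genes. The gibberellin-making enzyme gene 20ox-3, chosen after its values were seen, had 3.62 and 2.16 CPM in tunicamycin leaves, against 0.651 and 0.107 CPM in control leaves, and was not called (log2 3.08 ± 1.27, edgeR adjusted p = 0.809).

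Genes that answer abscisic acid and drying were lower at an unadjusted p under 0.05 in 18 of 119 cases (15.1%, against 3.59% of all genes). They were higher in 2 cases (1.68%, against 1.19%), and 1 gene was called lower (0.84%, against 0.251%). That gene, ER5, encodes a late embryogenesis-like protein, a class that protects cells during drying. ER5 had 13.4 and 10.2 CPM in tunicamycin leaves, against 49.3 and 133 CPM in control leaves (log2 -2.94 ± 0.44, edgeR adjusted p = 0.0143). The control replicates of ER5 were unlike each other, and both exceeded the tunicamycin libraries. Another drying-related gene, RD2, which the list did not match, had 17.5 and 11.8 CPM in tunicamycin leaves, against 49.8 and 66.1 CPM in control leaves (log2 -1.98 ± 0.37, edgeR adjusted p = 0.048). RD2 kept its call in 7 of 21 alternatives. LOC101267711, a protein phosphatase 2C of the class that holds abscisic acid signalling off, was not called and was chosen after its values were seen. It had 45.0 and 48.9 CPM in tunicamycin leaves, against 105 and 228 CPM in control leaves (log2 -1.83, edgeR adjusted p = 0.0695).

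No gene was called among 207 of lipid and wax synthesis or among 215 of antioxidant enzymes and NADPH oxidases. This is near the 0.266% of all genes for lists of this size. Single called genes outside those lists encode a polyamine oxidase and proteins that act on lipids. LOC101253022, polyamine oxidase 1, belongs to a class that oxidises spermine and related polyamines and releases hydrogen peroxide. It had 6.63 and 8.30 CPM in tunicamycin leaves, against 44.9 and 72.0 CPM in control leaves (log2 -2.98 ± 0.43, edgeR adjusted p = 0.0143). Of 30 genes on the polyamine list it was the 1 called lower (3.33%, against 0.251% of all genes), and none was called higher. DGK1, a diacylglycerol kinase that makes the signal lipid phosphatidic acid, had 7.47 and 4.49 CPM in tunicamycin leaves, against 40.1 and 32.4 CPM in control leaves (log2 -2.57 ± 0.34, edgeR adjusted p = 0.0121). LOC101257419 encodes an inositolphosphotransferase that makes the sphingolipid head group of plant plasma membranes. It stood at 2.01 and 1.21 CPM in tunicamycin leaves, against 12.6 and 11.3 CPM in control leaves (log2 -2.84 ± 0.47, edgeR adjusted p = 0.026). LOC101244514, a chloroplast phospholipase A1, had 10.6 and 8.12 CPM in tunicamycin leaves, against 31.5 and 51.1 CPM in control leaves (log2 -2.14 ± 0.36, edgeR adjusted p = 0.0266). A phosphatidylinositol transfer protein, LOC101252188, gave -1.81 ± 0.34 on the log2 scale, the smallest called decrease (edgeR adjusted p = 0.0463). It was called in 9 of 21 alternatives.

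Further called decreases spanned several functions. LOC101258203, an extra-large G protein that acts as a G alpha subunit in plants, had 6.70 and 8.21 CPM in tunicamycin leaves, against 51.7 and 45.3 CPM in control leaves (log2 -2.71 ± 0.35, edgeR adjusted p = 0.0104). LOC101265598 belongs to ABC transporter subfamily F, whose members carry no membrane-spanning part. It had 10.8 and 12.1 CPM in tunicamycin leaves, against 45.9 and 153 CPM in control leaves (log2 -3.12 ± 0.49, edgeR adjusted p = 0.0206). LOC109118716, a serpin-ZX-like protease inhibitor, gave -2.79 ± 0.47 (edgeR adjusted p = 0.0266). LOC101264635, described as 11-beta-hydroxysteroid dehydrogenase 1B, gave -3.48 ± 0.65 (edgeR adjusted p = 0.0463). SAP11, a stress-associated zinc finger protein, gave -2.22 ± 0.40 (edgeR adjusted p = 0.0386). In LOC101265598 control replicate 2 stood far above control replicate 1, and the log2 difference was -3.82 in the deeper pair and -1.92 in the shallower pair. The remaining lower genes of the lists were LOC101255928, a leucine-rich repeat extensin of the cell wall (-2.34), LOC101251665, 4-coumarate--CoA ligase-like 5 (-2.19), LOC101255973, a U-box ubiquitin ligase (-2.07), and the auxin-regulated gene LOC543701 (-2.60). Among these, LOC101255973 kept its call in 7 of 21 alternatives. Of the 51 lower genes 26 were on a list and 25 on none, and 3 had no described function.

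The 3 genes that rose with tunicamycin encode a cation exchanger and proteins tied to growth. LOC101250521 (cation/calcium exchanger 1-like), of a family that moves cations across membranes, had 49.5 and 50.0 CPM in tunicamycin leaves, against 15 and 9.18 CPM in control leaves. This was a log2 fold change of 2.05 ± 0.34 (edgeR adjusted p = 0.026), called in 15 of 21 alternatives. LOC101268293 encodes SAUR78, of a family of small proteins induced by auxin, and stood at 43.4 and 19.7 CPM in tunicamycin leaves, against 5.6 and 3.44 CPM in control leaves (log2 2.83 ± 0.50, edgeR adjusted p = 0.0386). ARGOS, which promotes organ growth in Arabidopsis, had 27.3 and 11.9 CPM in tunicamycin leaves, against 2.47 and 2.81 CPM in control leaves (log2 2.89 ± 0.55, edgeR adjusted p = 0.0481). In SAUR78 and ARGOS the deeper tunicamycin library stood well above the shallower one, and both lay above both controls. ARGOS was called in 9 and SAUR78 in 12 of 21 alternatives.

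Just outside the threshold on the higher side lay LOC101248236 (peroxidase 44-like), LOC101253163 (zinc finger protein 8) and LOC101262125 (bHLH87-like), each with an edgeR adjusted p of 0.0513. The peroxidase had 46.9 and 58.6 CPM in tunicamycin leaves, against 16.5 and 15.4 CPM in control leaves. Zinc finger protein 8, whose namesake in Arabidopsis takes part in the growth of leaf hairs, had 11.5 and 10.2 CPM in tunicamycin leaves, against 2.08 and 1.84 CPM in control leaves. LOC101262125 had 22.3 and 13.8 CPM in tunicamycin leaves, against 3.26 and 1.71 CPM in control leaves. The zinc finger list was the 1 list of at least 20 genes with over 10% of its genes higher at an unadjusted p under 0.05. Of 41 genes 6 were higher (14.6%, against 1.19% of all genes) and none lower (against 3.59%), with a median of 0.36. SAP11, the stress-associated zinc finger protein gene that was called lower (log2 -2.22), was not matched to this list.

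**Figure D3:**
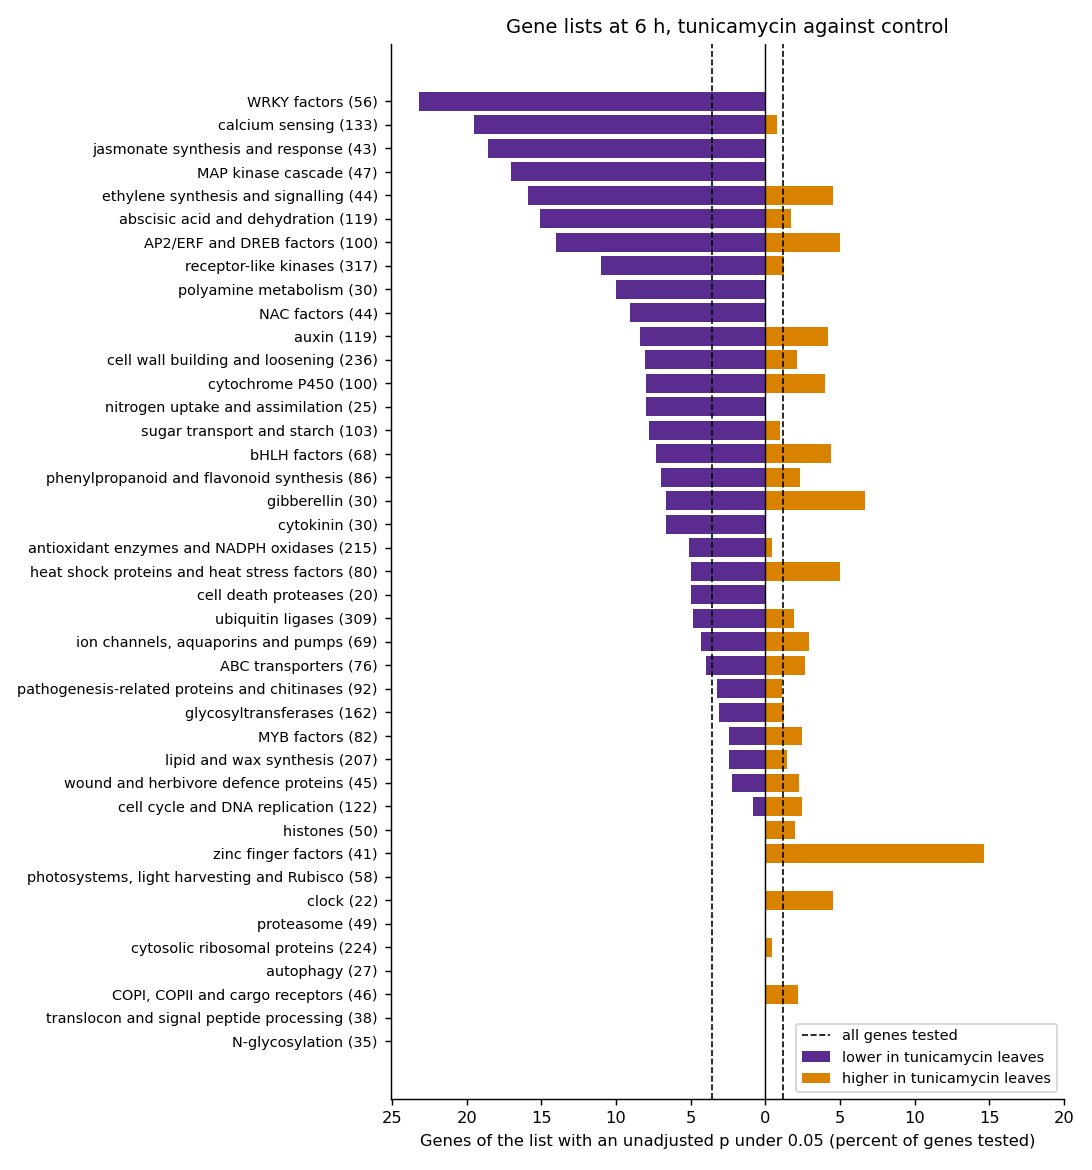
Share of the genes tested on each list of at least 20 genes (number in brackets) that had an unadjusted p under 0.05 and were lower (left, purple) or higher (right, orange) in tunicamycin leaves at 6 h. Dashed lines mark all genes tested, 3.59% lower and 1.19% higher, and WRKY, calcium and jasmonate genes reach furthest to the left and zinc finger genes furthest to the right.

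None of the genes on the ER lists passed, where 0.266% of all genes did, so a count of 0 is near the background for lists of this size. Of 13 ER lumen chaperone genes tested 10 were above zero, and the median log2 fold change was 0.13, with 0.39 in the deeper pair and -0.08 in the shallower pair. LOC101263797 (luminal-binding protein 5, a BiP) had 178 and 127 CPM in tunicamycin leaves, against 134 and 70.4 CPM in control leaves. The treatments overlapped, and the log2 fold change of 0.58 ± 0.38 came to 1.34 in the deeper pair and -0.08 in the shallower pair. BiP/grp78, read after the values were seen because the list pattern missed it, had 79.0 and 61.8 CPM in tunicamycin leaves, against 85.6 and 33.5 CPM in control leaves (log2 0.25 ± 0.39). For LOC101256620 (ERDJ3A, a J-domain helper of BiP) both tunicamycin libraries, at 10.5 and 8.47 CPM, were above both control libraries, at 2.87 and 5.82 CPM (log2 1.10 ± 0.49, edgeR adjusted p = 0.964). LOC543872 (P58IPK, a co-chaperone of BiP) had 22.9 and 17.3 CPM in tunicamycin leaves, against 13.6 and 10.2 CPM in control leaves (log2 0.76 ± 0.38).

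Genes matched by description as disulfide isomerases and oxidoreductins, a class that forms disulfide bonds, had a median of 0.13 over 16 genes tested. The median was 0.39 in the deeper pair and -0.08 in the shallower pair, so its sign turned with the library pair. The match took in LOC101260586 (protein disulfide-isomerase SCO2), at 0.39 ± 0.31, and whether each matched protein works in the ER was not checked. LOC101244079, a protein disulfide-isomerase, had 21.6 and 1.21 CPM in tunicamycin leaves, against 0.521 and 0.725 CPM in control leaves (log2 4.17 ± 1.06, edgeR adjusted p = 0.177). Tunicamycin replicate 1 was high and replicate 2 close to the controls, so the value rests on 1 library. LOC101246644, the oxidoreductin ERO1 that passes oxidising power to the isomerases, gave 0.54 ± 0.42. The 17 genes of ER-associated degradation gave a median of -0.03, the 38 translocon and signal peptide genes 0.10 and the 46 coat and cargo receptor genes 0.05.

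N-glycosylation genes gave a median of -0.05 over 35 genes tested, with none at an unadjusted p under 0.05 (against 4.78% of all genes). The median of these genes was 0.18 in the deeper pair and -0.03 in the shallower pair. Among them LOC101256171 encodes the GlcNAc-phosphotransferase that tunicamycin inhibits. It had 52.3 and 33.5 CPM in tunicamycin leaves, against 40.1 and 29.6 CPM in control leaves (log2 0.31 ± 0.32), with overlap between the treatments. LOC101252027, the glucosyltransferase that marks misfolded glycoproteins for another folding round, gave -0.34 ± 0.32. Of the 15 genes matched as regulators of the unfolded protein response, 11 were BAG chaperone regulators, and the sensors IRE1a (LOC101262583) and IRE1b-like (LOC101263702) gave 0.17 and -0.07. The member with the smallest p was LOC101264896 (BAG regulator 1), with 55 and 58.8 CPM in tunicamycin leaves, against 133 and 182 CPM in control leaves (log2 -1.47 ± 0.35, edgeR adjusted p = 0.112). Both bZIP factors named next were read after their values were seen, since the pattern missed them. bZIP60 (LOC101245758) had 155 and 161 CPM in tunicamycin leaves, against 210 and 139 CPM in control leaves (log2 -0.14 ± 0.35), and bZIP17 (LOC101263260) gave -0.77 ± 0.32 (edgeR adjusted p = 0.82). Spliced and unspliced forms of bZIP60 cannot be told apart in these counts.

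**Figure D4:**
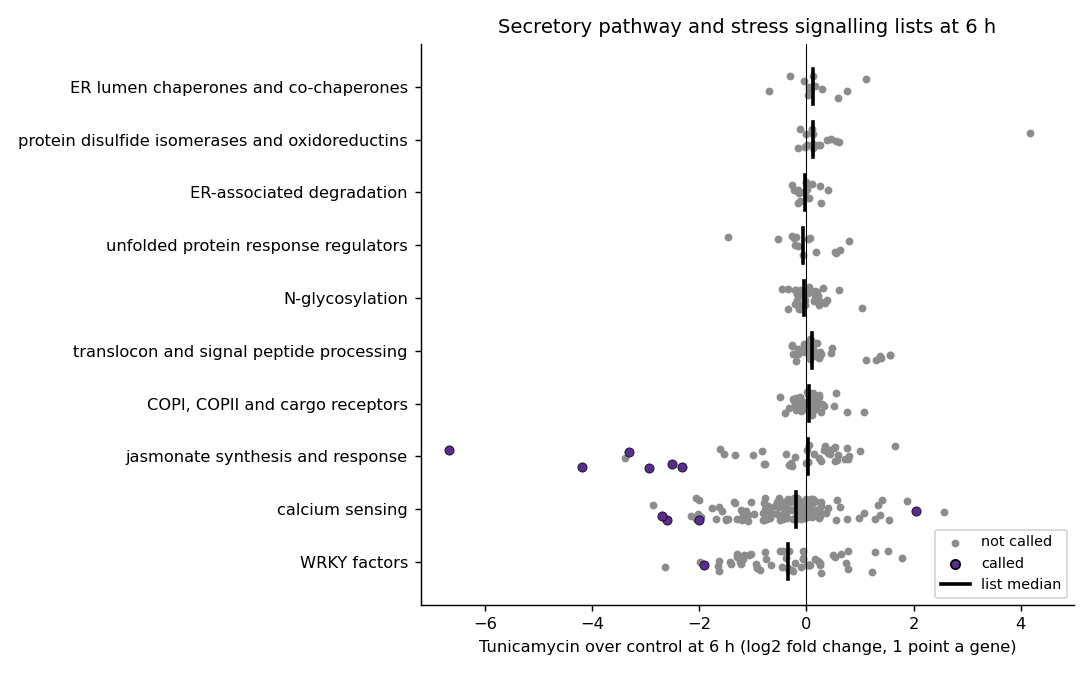
Log2 fold change of every tested gene, tunicamycin over control at 6 h, on 7 lists of the secretory pathway and on the jasmonate, calcium and WRKY lists, with called genes in purple and a black bar at each list's median. Medians of the ER lists lie between -0.07 and 0.13, and called genes are seen on the last 3 lists.

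Genes of general cell functions showed no calls, which is near the 0.266% of all genes for lists of this size. Cytosolic ribosomal proteins had a median of 0.12 over 224 genes, with 0.37 in the deeper pair and -0.03 in the shallower pair. For 58 genes of the photosystems, light harvesting and Rubisco the median was 0.25, with -0.33 in the deeper pair and 0.77 in the shallower pair, so its sign turned with the library pair. Tunicamycin replicate 2, the shallower library, held 3.23% ribosomal RNA, whose part in this difference was not tested. Heat shock genes outside the ER lists had 4 members higher and 4 lower at an unadjusted p under 0.05 among 80 (5.0% each, against 1.19% higher and 3.59% lower of all genes), and proteasome genes had none among 49. No gene on the lists of cell markers was called, and the 1 fruit marker was too low to be tested. Phloem markers summed to 436 and 625 CPM with tunicamycin, against 636 and 551 CPM in controls, and markers of dividing cells to 1059 and 2223 CPM with tunicamycin, against 2091 and 812 CPM in controls. Guard cell and epidermis markers summed to 320 and 307 CPM with tunicamycin, against 383 and 265 CPM in controls, and flower markers to 181 and 127 CPM with tunicamycin, against 140 and 157 CPM in controls. These sums overlapped between the treatments. Root markers summed to 613 and 768 CPM with tunicamycin, against 681 and 1304 CPM in controls, again with overlap. Flower markers were matched by APETALA or AGAMOUS in the description, and root markers by root-specific or nodulin. Whether the matched genes are confined to these organs was not checked. The 6 xylem markers tested, all laccases, summed to 11.4 and 12.4 CPM with tunicamycin, against 20.3 and 27.8 CPM in controls, with 3 genes above zero, 3 below and a median log2 fold change of 0.15. Most of that sum was laccase-17 (LOC101253711), which had 9.11 and 9.25 CPM in tunicamycin leaves, against 18.4 and 25.1 CPM in control leaves, and was not called (log2 -1.25 ± 0.58). The part of these markers in the other differences was not tested.

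The decreases of 6 h were already visible at 2 h for nearly all called genes. Of the 51 lower genes 50 had both tunicamycin libraries below both control libraries at 2 h as well, a pattern shown by 20.5% of all genes at that time, and 7 were also called lower at 2 h, when 11 of all genes were called lower (0.0542%) and 1 higher (0.00493%). The median log2 fold change of the 51 was -2.39 at 6 h and -1.56 at 2 h, and 48 were further below control at 6 h, although they were picked for their value at 6 h. The gene aos went the other way, with -4.44 at 2 h, when it had 2.15 and 4.26 CPM in tunicamycin leaves, against 50.8 and 76.1 CPM in control leaves. So, by less, did SLJAZ3 (-2.49 at 2 h and -2.31 at 6 h) and LOC101251665 (-2.37 at 2 h and -2.19 at 6 h). LOC101264635 was the exception among the lower genes in not lying below control at 2 h. It had 9.57 and 8.30 CPM at 2 h in tunicamycin leaves, against 5.13 and 8.89 CPM in control leaves of 2 h, and 0.313 and 0.691 CPM at 6 h in tunicamycin leaves, against 3.65 and 6.37 CPM in control leaves of 6 h.

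SAUR78 (LOC101268293), which rose at 6 h, overlapped between the treatments at the earlier time, with 55.5 and 24.3 CPM in tunicamycin leaves of 2 h, against 40.2 and 27.0 CPM in control leaves of 2 h. Its tunicamycin level was thus similar at both times, while its control level was lower at 6 h. The difference of the tunicamycin effect between 6 h and 2 h was tested for all 20282 genes in the same edgeR fit. In edgeR 0 genes passed (0.0%), with 495 at an unadjusted p under 0.05 (2.44%), and DESeq2 and limma-voom also called 0 genes, with 584 and 720 at an unadjusted p under 0.05. A larger change at 6 h is therefore not shown for any single gene. Without control 6 h replicate 1, 36 genes passed.

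**Figure D5:**
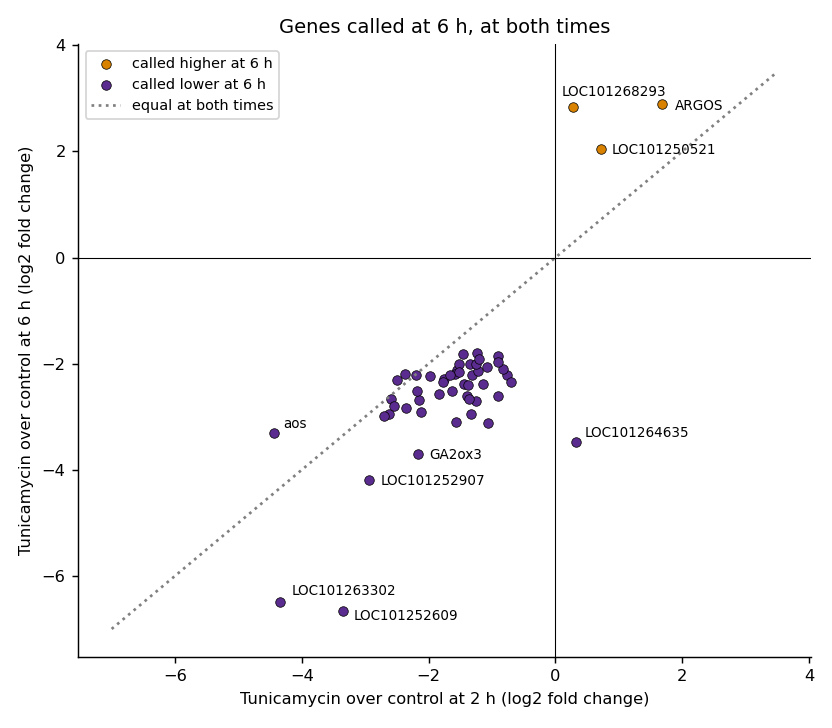
Log2 fold change, tunicamycin over control, at 2 h (x axis) and at 6 h (y axis) for the called genes of 6 h, 3 higher in orange and 50 of the 51 lower in purple; LOC101249870, with no count in tunicamycin leaves of 6 h, is not drawn. Most purple points lie left of zero and below the dotted line of equal change, with LOC101264635 to the right of zero. The purple points of aos and, by less, SLJAZ3 and LOC101251665 lie above the line.

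In the authors' deposited table for 6 h, which lists transcripts, 124 transcripts of 92 genes had a false discovery rate under 0.05, with 11 higher and 113 lower in tunicamycin. Of the 54 genes called here, 52 also passed and all 54 had the same sign in the authors' deposited table. Those that did not pass were LOC101258576 (WRKY53, false discovery rate 0.094) and SAP11 (false discovery rate 0.0586). The authors' deposited table rests on the same libraries, so this compares methods and not samples.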

How the data were processed

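Total RNA of tomato leaves was sequenced in 8 libraries, 2 biological replicates for each of 4 groups, per the labels. The labels do not say whether replicates came from separate plants, and p-values measure the spread between these libraries. The authors deposited raw read counts for 45845 RefSeq transcripts, as whole numbers. Their table for 6 h holds log2 fold changes and average log2 CPM, an F statistic (here a score), and p-values with false discovery rates, per the file headers. Per the submitters' processing notes, Trimmomatic 0.40 was among the tools. The sources used here do not name the aligner, counting program, strand setting, build or annotation, so overlapping and near-identical genes may share reads.

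Symbols were read from the deposited descriptions, because the symbol cell differed from them for 457 transcripts. The transcript with the highest total stood for each gene, and 90.9% of genes were found in a RefSeq gene table (assembly SLM_r2.1), which gave the order of neighbouring genes; none of its coordinates is printed. Genes were kept by filterByExpr (minimum count 10, minimum total count 15), scaled by TMM, and fitted with 1 mean per group to all 8 libraries by the robust quasi-likelihood method of edgeR 4.0.16 in R 4.3.3, two-sided, with 4 residual degrees of freedom. The common biological coefficient of variation was 0.374. P-values were adjusted by Benjamini-Hochberg over all 20282 genes, and genes with an adjusted p under 0.05 were called. CPM values are TMM-scaled, n = 2 per group, and errors of fold changes are standard errors (SE), the absolute log2 value divided by the square root of F. Where 2 values are given for a group, replicate 1 comes before replicate 2. Depth ranged from 13213095 to 90903361 counts at 6 h.

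The comparison, the 54 gene lists (matched on descriptions, 8 of them cell markers) and the rule for named genes were chosen with earlier results of these data known. The rule first took, per direction, up to 15 called and described genes by size of change, if their mean log2 CPM reached 1 and the treatments did not overlap, then up to 3 called members of each list, or its member with the smallest p, and the 3 members of each ER list with the smallest p. It gave 81 genes. Other genes in the text were chosen after their values were seen. Lists are described by counts and medians, without a test. The script was tested on simulated counts, in which large differences were mostly recovered, small ones were not, and false calls exceeded the nominal rate where each gene had its own spread. Alternatives used DESeq2 1.42.0, limma 3.58.1, other scalings and filters, a replicate block, a depth term and each library left out.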

Additional observations from a re-analysis of the deposited data

How the results depend on the processing

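Against the 54 genes called, DESeq2 called 288 and edgeR without a filter on low counts 398, both lists holding all 54 genes. A depth term called 124, again with all 54. It pairs the 6 h libraries across their numbers, and was read as that crossed pairing only after the data were seen. Leaving out ribosomal RNA, an alternative chosen after seeing the data, gave 54. With only the 4 libraries of 6 h the count was 0. With each library left out in turn the count ran from 0 to 165: it was 0 when tunicamycin 6 h replicate 1 was dropped, 18 for replicate 2 of that group (7 higher and 11 lower), 165 for control 6 h replicate 1, 82 for control 6 h replicate 2, 27 for control 2 h replicate 2 and 17 for tunicamycin 2 h replicate 1. The other alternatives of scaling, filter, tool, transcript choice and spread, and those without the remaining 2 h libraries, stayed within 1.5 times the count. The replicate block gave 55 genes, 48 of them shared with the 54. Replicate numbers were not taken as pairs: over the 6 pairs of groups, deviations of the replicate 1 libraries correlated from -0.193 (tunicamycin 6 h and control 6 h) to 0.179 (tunicamycin 6 h and tunicamycin 2 h). Over all called genes and alternatives, 800 calls held, 330 ended and 0 turned sign.

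For the difference between the times the count was 0 in edgeR, 70 without a filter on low counts, and from 0 to 36 with 1 library left out (36 when control 6 h replicate 1 was dropped, 1 for tunicamycin 2 h replicate 2). It was 0 with the replicate block.

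Among named genes not called, the log2 fold change turned sign in 8 when 1 library was left out. Over these fits it ran from -0.11 to 0.98 for LOC101246644, from -0.051 to 0.60 for LOC101256171 and from -0.074 to 1.13 for LOC109119998. LOC101256722 ran from -0.60 to 0.080 (0.0031 when tunicamycin 6 h replicate 2 was dropped), LOC101256748 from -0.999 to 0.38, LOC101266220 from -0.63 to 0.18 and LOC101261464 from -1.46 to 0.32. LOC108511948 ran from -4.18 to 2.40 and was at -2.59 in limma-voom. The cause was not tested. Of list medians under the alternatives, 916 stayed within the spread of the library pairs and 197 did not. The shallower libraries limit genes of low abundance most, and 2 libraries a group limit every p.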

Other observations

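Except for LOC101260261 and Hsc70.1, the genes described here were chosen after their values were seen. Genes of the SAUR family, small proteins induced by auxin, lay on both sides of control at 6 h. LOC101249503 (SAUR50-like) had 12.3 and 4.15 CPM in tunicamycin leaves, against 1.56 and 2.24 CPM in control leaves (log2 2.11 ± 0.78, edgeR adjusted p = 0.633). Its neighbour LOC101253234, also SAUR50-like and with no gene between them in the RefSeq table, gave 2.61 ± 1.15. LOC101248065 (SAUR71-like) had 23.0 and 40.1 CPM in tunicamycin leaves, against 8.46 and 16.5 CPM in control leaves (log2 1.32 ± 0.38, edgeR adjusted p = 0.263). LOC101268244 (SAUR68-like) had 0.209 and 0 CPM in tunicamycin leaves, against 1.56 and 1.99 CPM in control leaves (log2 -3.64 ± 1.18, edgeR adjusted p = 0.412). The adjacent SAUR68-like gene LOC101268825 gave -4.70 ± 1.76. None of these genes was called, and copies lying side by side may share reads.

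Among genes that were not called, some lay next to each other or to a called gene. LEA14, a late embryogenesis-like gene adjacent to ER5 in the RefSeq table, had 81.0 and 64.4 CPM in tunicamycin leaves, against 145 and 395 CPM in control leaves (log2 -1.89 ± 0.46, edgeR adjusted p = 0.132). Control replicate 2 was the highest library for ER5 and for LEA14. ACS7 and LOC112940919, adjacent ACC synthase genes, gave -3.55 and -3.59 on the log2 scale, with 0 CPM in tunicamycin replicate 2 for both. The ZAT10 zinc finger genes LOC101256572 and LOC101254884, also adjacent, gave 1.70 ± 0.64 and 1.25 ± 0.44. LOC101256572 had 28.3 and 43.1 CPM in tunicamycin leaves, against 3.26 and 18.2 CPM in control leaves (edgeR adjusted p = 0.73). Of genes with no such neighbour described here, LOC101260261 (wound-induced protein 1) had 15 and 30.3 CPM in tunicamycin leaves, against 4.10 and 4.36 CPM in control leaves (log2 2.41 ± 0.51, edgeR adjusted p = 0.0754). Hsc70.1, a cytosolic heat shock cognate chaperone, had 24.9 and 45.6 CPM in tunicamycin leaves, against 148 and 114 CPM in control leaves (log2 -1.90 ± 0.42, edgeR adjusted p = 0.0963). In all, 94 genes had an adjusted p between 0.05 and 0.1, of which 85 were lower and 9 higher in tunicamycin leaves.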
